A study of Drosophila melanogaster with 6 samples.

Results

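Of the 42506 transcript targets that were quantified in Drosophila melanogaster leg discs, 13333 carry no FlyBase transcript identifier (an ID that starts with FBtr), and 100 of these 13333 had a mean estimated count of at least 100 over the 6 libraries. These 100 targets are the subject here. The polyA+ RNA came from imaginal leg discs at 2h APF (2 hours after pupal formation, 3 libraries) and at wL3 (wandering L3 larvae, 3 libraries). The flies of both stages had the genotype white [1118], in which a loss of the white gene takes the colour from the eye, and neither stage received a treatment. The labels do not say how many animals or which sexes a library holds, and nothing says that the 3 libraries of a stage came from separate cultures. The p-values therefore measure the spread between these libraries, which may be technical.

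Long intergenic noncoding RNAs (lincRNAs) are transcripts that lie between genes and do not encode a long protein. Many of them are known from large transcript catalogues before they have a name, and their levels often differ between tissues and developmental stages. At the end of larval life a pulse of the steroid hormone ecdysone starts metamorphosis, and the leg disc, an epithelial sac, turns itself inside out to form the leg. The 2 stages lie before and after that pulse. The reads were counted by the authors on the Ensembl annotation joined with added lincRNAs.

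By the start of their IDs, 77 of the 100 targets belong to an Mgn series, 18 to a TCONS series, 2 are named by a chromosome and a pair of positions, 2 are named gw and 1 is named CR42549. The sources used here do not spell out Mgn or TCONS. The strand sign at the end of the ID is minus for 58 targets and plus for 42. Many IDs share a stem and differ in a letter after the point, as in Mgn4397.k and Mgn4397.m, and this stem is called the ID root below. The 100 targets have 79 ID roots, and 12 roots with more than 1 of the targets hold 33 of them. Mgn4397.m, Mgn4397.q and Mgn4397.v had identical values in every library, as did Mgn4397.r and Mgn4397.ag, which leaves 97 distinct sets of values.

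The name lincRNA could be checked for few of the targets. A RefSeq symbol or synonym (Release 6 of the genome) matched 6 of the 100, against 212 of all 13333 targets without an FBtr identifier. CR42549.g matched lncRNA:CR42549, a long noncoding RNA gene. The other 5 matched protein-coding genes. These were gw.g and gw.bu, with the symbol of gw (gawky, a partner of Argonaute in silencing by microRNAs), and Mgn1457.a, Mgn1457.d and Mgn1457.g, with a synonym of l(1)G0289. The targets are therefore called by their rule, abundant targets without an FBtr identifier, and not lincRNAs. On dm3, the build named in the submitters' processing notes, the pair with positions in their IDs would lie on chromosome 2R from 12189967 to 12193362 (minus strand) and on chromosome X from 13740246 to 13742712 (minus strand). Of these, the chrX target is 2449 bases long in the files for a span of 2467 bases, while the chr2R target is listed with 6345 bases for a span of only 3396 bases. No annotation of that build was used here, so what lies at these positions is not given.

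The targets were chosen by their estimated count in these same libraries, so their abundance is given as a description. Mgn00446.a, Mgn574.b, Mgn00231.b and Mgn570.a led the order, 13 targets had a mean of at least 1000 counts and 45 a mean under 200. Just inside the minimum stood Mgn4235.e with a mean of 100.7 and Mgn4235.a with 101.2 counts, and just outside it Mgn3671.e and Mgn00193.a with 98.7 counts each. A mean of 100 was reached at both stages by 84 targets, while 3 were included through their counts at 2h APF alone and 13 through their counts at wL3 alone. These counts were not scaled for depth, and the libraries at wL3 held more counts on average. The minimum was therefore easier to reach through wL3. The libraries held between 24395318 and 30880112 estimated counts at 2h APF and between 27514509 and 33373176 at wL3. The leg disc was recognisable in all 6 of them, with 10 of 10 leg disc genes (such as Dll, dac and hth) detected and a summed level between 975 and 991 TPM at 2h APF and between 960 and 974 TPM at wL3. TPM is a level per length, in which each count is divided by the effective length of its target and the results are scaled to the same total in every library.

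The 100 targets took a small but concentrated part of each library. Their share of all estimated counts was 0.242%, 0.238% and 0.245% at 2h APF, against 0.263%, 0.243% and 0.271% at wL3. The means were 0.242% ± 0.00372 at 2h APF and 0.259% ± 0.0145 at wL3 (SD, n = 3 each), and the stages overlapped (log2 ratio -0.10, 2-sided exact permutation p = 0.2). In TPM the order was the other way round. The targets summed to 6661, 6760 and 7075 TPM at 2h APF, against 6215, 6162 and 6460 TPM at wL3, without overlap (means 6832 ± 216 at 2h APF and 6279 ± 159 at wL3, SD, n = 3 each; log2 ratio 0.12, exact permutation p = 0.1, the lowest value possible with 3 libraries per stage). A summed level that was lower at 2h APF in counts and higher in TPM gives no stage direction for these targets as a whole. Between 84.0% and 85.6% of the counts on all targets without an FBtr identifier fell on these 100 targets. Mgn00446.a alone held between 17.4% and 20.3% of their counts, and the 4 leading targets between 47.6% and 53.3%.

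The 4 leading targets were held at similar levels at both stages. Mgn00446.a, 838 bases long, stood at 1033, 1006 and 1033 TPM at 2h APF, against 889, 876 and 946 TPM at wL3. All 3 libraries at 2h APF lay above all 3 at wL3, and the rise was small but passed the test (log2 fold change 0.16, SE 0.0349, p adjusted by Benjamini-Hochberg after the quasi-likelihood test of edgeR = 0.0122). When the libraries were scaled by their totals and not by TMM, the log2 fold change was 0.08 and no longer passed (edgeR adjusted p = 0.134). It missed the threshold as well in limma on log2 TPM at a fold change of 0.18, with an adjusted p of 0.0536 at a pseudocount of 0.5 and of 0.0578 at a pseudocount of 0.1. Mgn574.b, 378 bases long, had the highest TPM, with 2004, 2228 and 2201 TPM at 2h APF, against 2182, 2300 and 2237 TPM at wL3. The stages overlapped (log2 fold change -0.05, SE 0.0675, edgeR adjusted p = 0.62). For short targets the effective length, in which a fragment can start, is much smaller than the length. It was between 160 and 172 bases for Mgn574.b, and a short target therefore gets a high TPM from few counts.

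Mgn570.a (550 bases) gave 771, 851 and 1204 TPM at 2h APF, against 825, 718 and 869 TPM at wL3, with 1 library at 2h APF above the other 5 (log2 fold change 0.22, edgeR adjusted p = 0.403). Mgn00231.b is 3023 bases long and stood at 109, 103 and 95.2 TPM at 2h APF, against 123, 96.2 and 115 TPM at wL3. These ranges overlapped as well (log2 fold change -0.16, edgeR adjusted p = 0.294). Further down the order, Mgn00471.h had 74.9, 63.6 and 53.9 TPM at 2h APF, against 101, 67.9 and 103 TPM at wL3 (log2 fold change -0.53, edgeR adjusted p = 0.0747), and wL3 replicate 2 lay among the 2h APF libraries. Without that library the adjusted p was 0.019. With all libraries kept, the sum over the 8 targets of its root did not overlap between the stages and passed (log2 fold change -0.60, SE 0.144, edgeR adjusted p = 0.0185).

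Among the next 5 targets the chr2R target and Mgn1457.g, described below with its gene, rose, and the other 3 did not pass. The chr2R target had 14.8, 16.7 and 13.5 TPM at 2h APF, against 10.4, 7.91 and 9.76 TPM at wL3, without overlap (log2 fold change 0.65, SE 0.131, edgeR adjusted p = 0.00926). Mgn560.d gave 17.3, 12.6 and 7.55 TPM at 2h APF, against 30.9, 16.3 and 32.5 TPM at wL3. Its means were 12.5 ± 4.9 TPM at 2h APF and 26.6 ± 8.92 TPM at wL3 (SD, n = 3 each), but wL3 replicate 2 fell below 2h APF replicate 1, and the difference missed the threshold (log2 fold change -1.12, SE 0.38, edgeR adjusted p = 0.0581). Leaving out 1 library at a time moved it between -0.86 and -1.43, with edgeR adjusted p under 0.05 without wL3 replicate 2 (0.034) and without 2h APF replicate 1 (0.0468), and of 0.126 to 0.163 without one of the other 4. The sum over the 10 targets of its root did not pass either (log2 fold change -0.57, SE 0.322, edgeR adjusted p = 0.216). Its neighbour by ID, Mgn560.i, averaged 13.6 ± 5.34 TPM at 2h APF and 12 ± 2.29 TPM at wL3 (SD, n = 3 each; edgeR adjusted p = 0.74). Mgn00408.a averaged 15.5 ± 2.2 TPM at 2h APF and 16.8 ± 2.06 TPM at wL3 (SD, n = 3 each; edgeR adjusted p = 0.418).

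**Figure D1:**
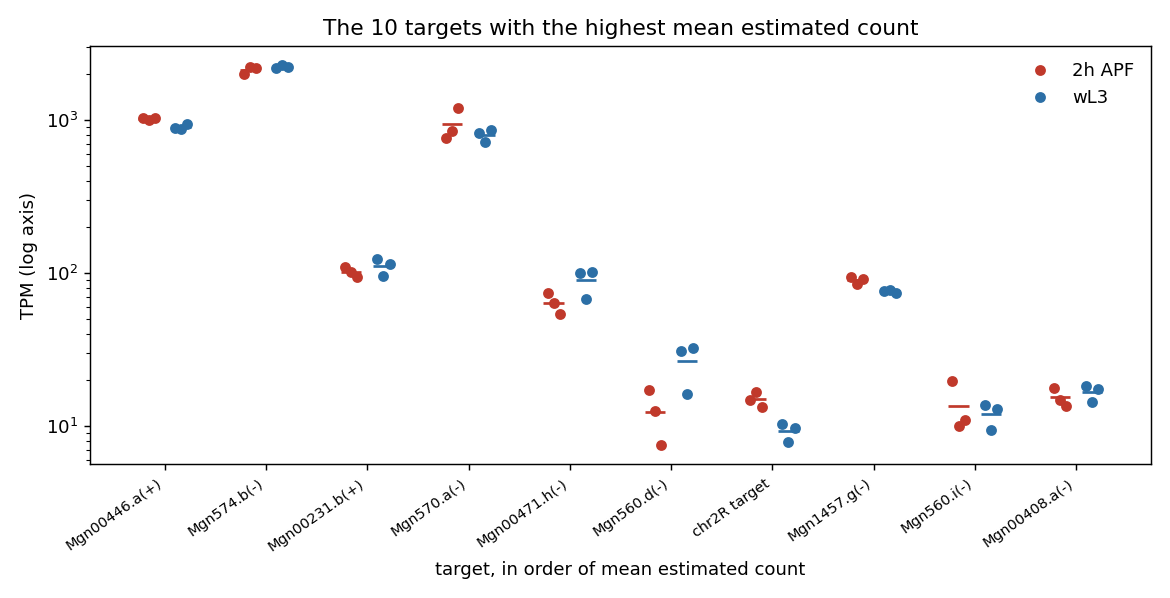
TPM (log axis) of the 10 targets with the highest mean estimated count, in that order, with 1 point per library and a bar at the mean of the 3 libraries of a stage; 2h APF is red and wL3 is blue. Mgn574.b lies between 2004 and 2300 TPM in all libraries, while Mgn560.d spans 7.55 to 17.3 TPM at 2h APF and 16.3 to 32.5 TPM at wL3.

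The stages were then compared target by target, in 1 fit over the 17601 targets kept by filterByExpr, the low-count filter of edgeR. A target was called when its adjusted p was under 0.05 and its log2 fold change was above 1 or below -1. All 100 abundant targets without an FBtr identifier were kept. Of these, 12 were called, 6 higher and 6 lower at 2h APF. That is 12.0% of the 100, where 15.1% of all targets tested were called (8.44% higher and 6.69% lower) and 14.9% of the 12411 tested FBtr targets with the same minimum count. Without the fold threshold 32 of the 100 passed, 13 higher and 19 lower, against 42.6% of all targets tested (20.3% higher and 22.3% lower) and 53.5% of the abundant FBtr targets. The choice by mean count bears on these calls. All 3 targets that reached the minimum through 2h APF alone were called higher, and 4 of the 13 that reached it through wL3 alone were called lower. Of the 84 with a mean of at least 100 at both stages, 3 were called higher and 2 lower. The counts of calls are therefore a description of the selected targets. The levels of the stages did not overlap for 45 of the 100 (17 higher and 28 lower at 2h APF), where the share was 57.2% over all targets tested (26.9% higher and 30.3% lower) and 65.9% over the abundant FBtr targets.

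The median log2 fold change of the 100 was -0.16, beside -0.03 over all targets tested. Their median standard error was 0.198, beside 0.101 for the abundant FBtr targets. Here and in the shares above, the FBtr targets share the minimum count but were not matched to the 100 in abundance. The abundant FBtr targets that the annotation lists as noncoding RNA, 56 in number, had 5 calls higher and 4 lower, or 16.1%.

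**Figure D2:**
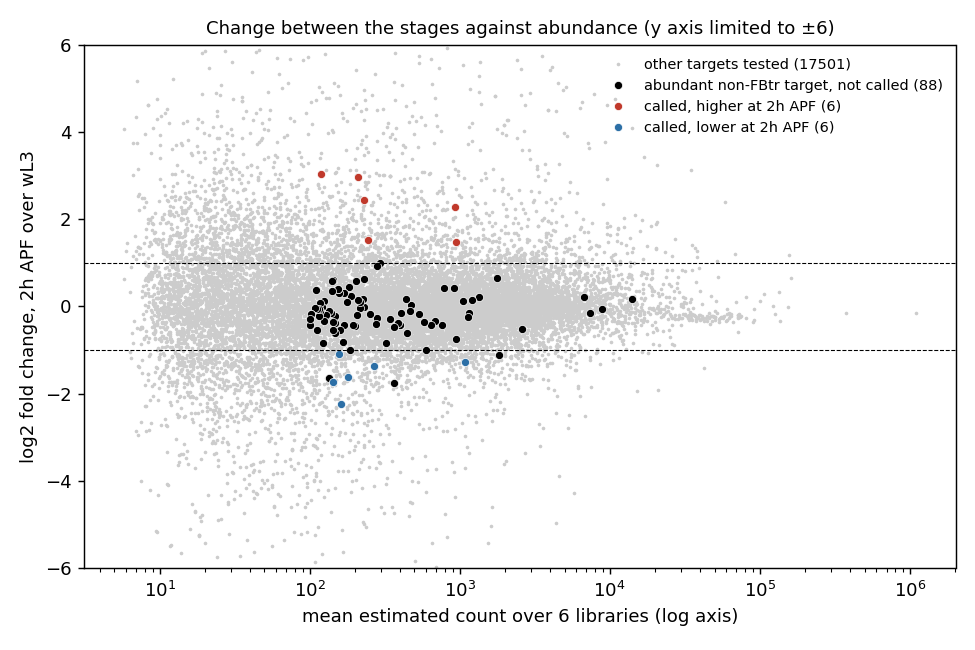
Log2 fold change of 2h APF over wL3 against the mean estimated count over 6 libraries (log axis), with 1 point per target. The 6 red and 6 blue targets were called higher and lower at 2h APF, the 88 black ones were not called, grey points are the other 17501 targets tested, dashed lines mark log2 fold changes of 1 and -1, and the y axis leaves out points beyond 6 in either direction.

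The 6 targets called higher at 2h APF were the chrX target, Mgn4324.n, Mgn3884.d, TCONS_00262090, Mgn3590.a and TCONS_00144116. None of these has a matched gene name or a role that the sources give. The chrX target, Mgn4324.n and Mgn3884.d are the 3 that reached the minimum count through 2h APF alone. The chrX target had the largest fold. Its counts were 247, 266 and 111 at 2h APF, against 23, 27 and 44 at wL3, and its level was 5.74, 5.40 and 2.06 TPM at 2h APF, against 0.361, 0.517 and 0.706 TPM at wL3. Every library at 2h APF was above every library at wL3, although 2h APF replicate 3 held less than the other 2h APF libraries (log2 fold change 3.03, SE 0.492, edgeR adjusted p = 0.00403).

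The strongest of these changes in absolute level belonged to a short target. TCONS_00262090, 344 bases long, had 480, 499 and 471 TPM at 2h APF, against 119, 87.0 and 95.5 TPM at wL3. Its counts were 1267, 1571 and 1671 at 2h APF, against 472, 280 and 366 at wL3. Replicates lay close in TPM at 2h APF and further apart at wL3 (log2 fold change 2.27, SE 0.136, edgeR adjusted p = 8.19e-05). TCONS_00144116 (700 bases) likewise rose, with 124, 130 and 133 TPM at 2h APF, against 48.3, 39.6 and 48.5 TPM at wL3 (log2 fold change 1.49, SE 0.0982, edgeR adjusted p = 0.000116). Both targets had whole counts in every library, so their estimated counts gave no sign of reads divided with another target. Mgn3590.a also had whole counts and stood at 27.2, 21.6 and 23.3 TPM at 2h APF, against 8.59, 8.12 and 7.80 TPM at wL3 (log2 fold change 1.53, SE 0.133, edgeR adjusted p = 0.000323).

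Mgn3884.d is the longest of the 100 targets, with 15713 bases, and combined a low level with the smallest p. Its level was 1.03, 1.07 and 1.20 TPM at 2h APF, against 0.198, 0.189 and 0.211 TPM at wL3, from 312, 371 and 451 counts at 2h APF and 88.4, 69.5 and 92.3 counts at wL3 (log2 fold change 2.43, SE 0.127, edgeR adjusted p = 5.65e-05). Mgn4324.n (5617 bases) had 3.03, 2.61 and 3.56 TPM at 2h APF, against 0.531, 0.430 and 0.180 TPM at wL3 (log2 fold change 2.98, SE 0.421, edgeR adjusted p = 0.00226). It is 1 of 15 targets of its ID root, and the sum over the root is given further on.

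The 6 targets called lower at 2h APF were Mgn95015.a, Mgn00225.a, Mgn4378.b, Mgn94004.a, Mgn1614.c and Mgn00479.d. Of these, Mgn95015.a, Mgn00225.a, Mgn4378.b and Mgn00479.d reached the minimum count through wL3 alone. Mgn95015.a had the largest fall, with whole counts of 49, 27 and 72 at 2h APF, against 320, 217 and 294 at wL3. Its level was 1.16, 0.556 and 1.35 TPM at 2h APF, against 5.11, 4.22 and 4.79 TPM at wL3 (log2 fold change -2.23, SE 0.352, edgeR adjusted p = 0.00355). The most abundant of the 6 was Mgn1614.c, 5402 bases long and also with whole counts. It stood at 6.22, 3.73 and 4.83 TPM at 2h APF, against 10.5, 11.5 and 12.9 TPM at wL3 (log2 fold change -1.27, SE 0.186, edgeR adjusted p = 0.00261). Mgn4378.b (663 bases) gave 7.76, 7.24 and 9.60 TPM at 2h APF, against 24.1, 22.9 and 27.5 TPM at wL3, without overlap (log2 fold change -1.61, SE 0.185, edgeR adjusted p = 0.000973).

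Mgn94004.a (6523 bases, whole counts) had 0.880, 1.13 and 0.855 TPM at 2h APF, against 2.44, 2.86 and 1.98 TPM at wL3 (log2 fold change -1.38, SE 0.198, edgeR adjusted p = 0.00244). The other pair of calls was less stable. Mgn00225.a had 31.1, 42.0 and 108 counts at 2h APF, against 169, 276 and 237 at wL3 (log2 fold change -1.74, SE 0.483, edgeR adjusted p = 0.0305), and its call was lost when any of 4 libraries was left out, with adjusted p of 0.0963 without wL3 replicate 2, 0.0731 without wL3 replicate 3, 0.0787 without 2h APF replicate 1 and 0.0958 without 2h APF replicate 2. Mgn00479.d fell by 1.09 on the log2 scale, with counts of 76.8, 90.4 and 104 at 2h APF, against 179, 268 and 226 at wL3 (SE 0.253, edgeR adjusted p = 0.016). Its adjusted p was 0.0515 without 2h APF replicate 1 and 0.0514 without 2h APF replicate 2, and its log2 fold change was -0.81, inside the fold threshold, without wL3 replicate 2. Summed over the 4 targets of the root Mgn00479, the log2 fold change was -1.31 (SE 0.183, edgeR adjusted p = 0.00219). Over the 2 targets of the root Mgn00225 it was -1.30 (SE 0.374, edgeR adjusted p = 0.0337).

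Several targets changed by less than the fold threshold and still passed at an adjusted p under 0.05. TCONS_00183003, the shortest of the 100 at 219 bases, had 283, 265 and 253 TPM at 2h APF, against 127, 152 and 153 TPM at wL3 (log2 fold change 0.92, SE 0.112, edgeR adjusted p = 0.00123). TCONS_00183003 and TCONS_00262090 were among the 5 targets with the highest mean TPM, and both rose. At the other end, Mgn00512.s, Mgn00308.c and Mgn4541.b had the log2 fold changes closest to 0, at 0.00, -0.01 and -0.03. For Mgn4541.b, with whole counts, this came with tight replicates of 1.91, 2.08 and 2.03 TPM at 2h APF, against 1.96, 1.87 and 2.17 TPM at wL3 (SE 0.127).

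The targets that match an annotated gene could be set beside that gene, whose own FBtr targets were summed. CR42549.g, 380 bases long with whole counts, had 181, 150 and 141 TPM at 2h APF, against 200, 215 and 225 TPM at wL3 (log2 fold change -0.43, SE 0.0844, edgeR adjusted p = 0.00861). The 4 FBtr targets of lncRNA:CR42549 summed to only 56.7, 57.6 and 58.0 TPM at 2h APF, against 55.1, 52.9 and 55.4 TPM at wL3, and the gene did not pass in the fit over genes (log2 fold change 0.07, edgeR adjusted p = 0.129). Per length, the level of CR42549.g was therefore 319%, 261% and 244% of the level of the annotated gene at 2h APF, against 362%, 406% and 406% at wL3, without overlap (exact p = 0.1, the smallest possible). In TPM the added target thus exceeded the annotated transcripts of its gene in all 6 libraries.

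Under the name of gw the targets stood below their gene in TPM, and the log2 fold changes of gw.g and of the gene were both negative. The target gw.g had 8.03, 7.09 and 7.40 TPM at 2h APF, against 12.0, 10.3 and 11.4 TPM at wL3 (log2 fold change -0.61, SE 0.0988, edgeR adjusted p = 0.00395), while the 5 FBtr targets of gw, whose product acts with Argonaute, averaged 103 ± 7.08 TPM at 2h APF and 113 ± 1.77 TPM at wL3 (SD, n = 3 each; log2 fold change -0.13, edgeR adjusted p = 0.0762). The other target, gw.bu, had 30.0, 19.3 and 28.4 TPM at 2h APF, against 30.5, 31.2 and 24.5 TPM at wL3, and overlapped between the stages (edgeR adjusted p = 0.519). For l(1)G0289, with 1 FBtr target, the gene averaged 99.0 ± 1.31 TPM at 2h APF and 89.8 ± 1.59 TPM at wL3 (SD, n = 3 each; log2 fold change 0.13, edgeR adjusted p = 0.00577). Mgn1457.g stood close to that level, with 94.3, 84.9 and 91.7 TPM at 2h APF, against 76.3, 78.3 and 74.9 TPM at wL3, and rose slightly (log2 fold change 0.22, SE 0.0509, edgeR adjusted p = 0.0163). Its adjusted p was 0.0595 without wL3 replicate 3, 0.0511 without 2h APF replicate 1, 0.0574 without 2h APF replicate 3 and 0.0983 with total library size. Mgn1457.d, 458 bases long, lay the other way, with 23.5, 18.8 and 19.8 TPM at 2h APF, against 25.8, 37.0 and 32.0 TPM at wL3. Its stages did not overlap, but it missed the threshold (log2 fold change -0.61, SE 0.198, edgeR adjusted p = 0.0522), and its level averaged 20.9% of that of the gene at 2h APF and 35.1% at wL3 (exact p = 0.1). Mgn1457.a (898 bases) varied between replicates, with 5.77, 12.9 and 5.38 TPM at 2h APF, against 12.0, 3.34 and 6.33 TPM at wL3 (edgeR adjusted p = 0.89).

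Where several targets share an ID root, kallisto can divide reads that fit more than 1, and the split can change between libraries. Mgn4441.l and Mgn4441.o, both 2682 bases long, had shifting values, and whether divided reads gave rise to this was not tested. Mgn4441.l had 283, 259 and 559 counts at 2h APF, against 530, 44.6 and 97.1 at wL3. Mgn4441.o had 283, 259 and 70.4 counts at 2h APF, against 33.0, 561 and 730 at wL3. The pair had equal values in 2h APF replicates 1 and 2, while in the other libraries one was high where the other was low, also among replicates of a stage. The sum over the 15 targets of the root was 25.7, 24.0 and 24.5 CPM at 2h APF, against 20.9, 24.2 and 27.1 CPM at wL3 (CPM, counts scaled to a common library size after TMM), with no stage difference past the threshold (log2 fold change 0.04, SE 0.105, edgeR adjusted p = 0.793).

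For Mgn4324 and Mgn4397 the sum over the root passed the test. The 15 targets of Mgn4324 summed to 20.6, 20.9 and 24.9 CPM at 2h APF, against 9.16, 9.68 and 9.30 CPM at wL3, without overlap (log2 fold change 1.24, SE 0.101). This rise is smaller than that of Mgn4324.n alone (2.98). Its relative Mgn4324.k had 1.84, 241 and 235 counts at 2h APF, against 158, 65.9 and 149 at wL3, nearly absent from 2h APF replicate 1 only. The 44 targets of Mgn4397, of which 7 are among the 100, summed to 60.6, 69.7 and 67.7 CPM at 2h APF, against 87.3, 87.0 and 80.0 CPM at wL3, a fall by 0.36 on the log2 scale (SE 0.067). Within this root Mgn4397.k had 289, 116 and 0.00295 counts at 2h APF, against 591, 436 and 751 at wL3, while Mgn4397.m was steady with 10.3, 12.2 and 11.7 CPM at 2h APF, against 15.1, 15.1 and 15.4 CPM at wL3 (log2 fold change -0.41, SE 0.0942, edgeR adjusted p = 0.0147). The sums for Mgn4324 and Mgn4397 had smaller standard errors than the single targets named here, and their adjusted p was 0.000247 and 0.00675 by edgeR.

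**Figure D3:**
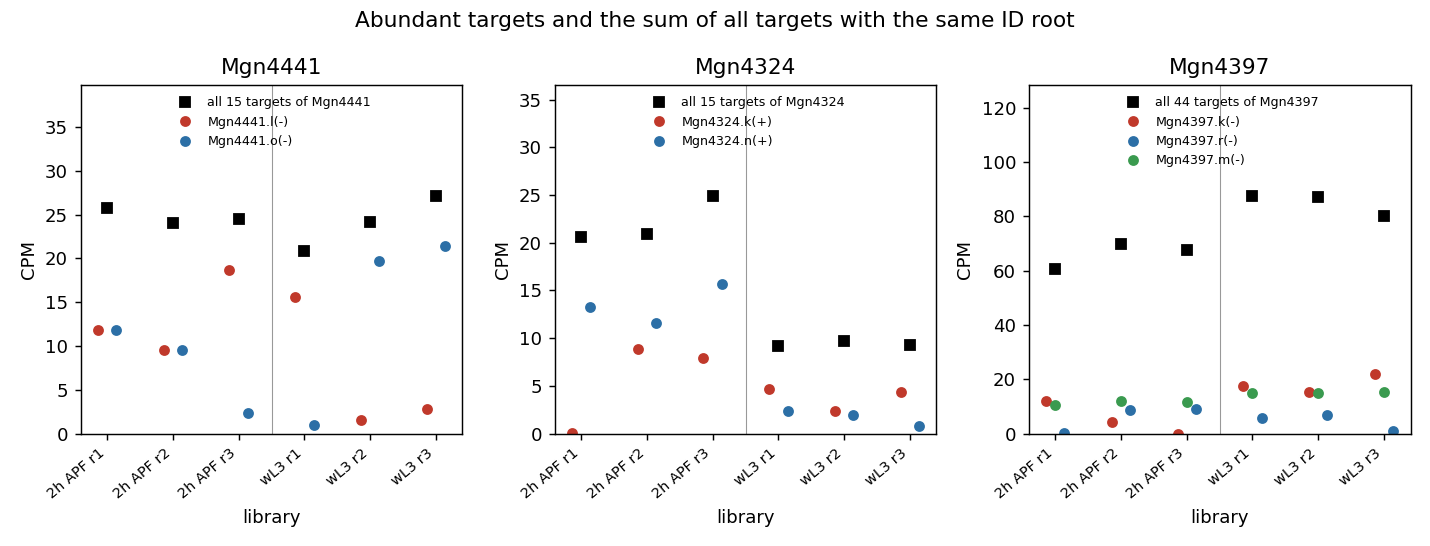
CPM per library (2h APF replicates 1 to 3 left of the vertical line, wL3 replicates 1 to 3 right of it) of the sum over all targets of an ID root (black squares) and of single targets of that root (coloured points, set side by side) for Mgn4441, Mgn4324 and Mgn4397. Mgn4441.l and Mgn4441.o trade places between libraries while their root stays between 20.9 and 27.1 CPM.

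The spread between replicates was described over all 100 targets by the coefficient of variation (CV, the SD divided by the mean), which does not separate the division of reads from other sources. Its median was 0.144 at 2h APF and 0.117 at wL3, beside 0.0803 at 2h APF and 0.0666 at wL3 for the FBtr targets with the same minimum count. Those FBtr targets were not matched in abundance. Their median level was 15.5 TPM at 2h APF and 15.7 TPM at wL3, against 7.80 and 9.95 TPM for the 100. A CV above 0.5 at either stage was found for 13 of the 100, or 13.0%, and for 7.30% of the abundant FBtr targets. Of these 13, 9 belong to roots with more than 1 target and 4 are the only target of their root. Most of all 100 targets also belong to roots with more than 1 target, and a link of CV to shared roots was not tested. The counts were whole in every library, within 0.001, for 22 of the 100, or 22.0%, beside 27.7% of the abundant FBtr targets. None of these 22 had a CV above 0.5, against 13 of the 78 others. The median of each target's larger CV was 0.174 for these 22 and 0.195 for the 78 others. Of the 22 targets with whole counts 7 were called, 4 higher and 3 lower at 2h APF. That is 31.8% of a small number, beside 15.1% of the 3432 tested FBtr targets with whole counts and the same minimum.

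Another 3 targets, each alone in its root, varied together between libraries of a stage. Their counts were not whole in every library, and whether their reads were divided with other targets was not tested. TCONS_00208608 had 107, 699 and 715 counts at 2h APF, against 66.1, 766 and 1519 at wL3. TCONS_00216398 had 114, 389 and 332 counts at 2h APF, against 10.1, 382 and 952 at wL3. TCONS_00234574 had 2.90, 199 and 117 counts at 2h APF, against 9.51, 131 and 248 at wL3. All of them were lowest in replicate 1 at each stage, and none differed between the stages past the threshold, with standard errors of 1.08, 1.21 and 1.41 on the log2 scale. They were picked out after their values were seen.

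Markers of other tissues also differed between these libraries. The 6 fat body genes, such as Fbp1 and the larval serum protein Lsp2, summed to 290, 403 and 98.9 TPM at 2h APF, against 23.7, 2247 and 1342 TPM at wL3. The salivary gland glue genes, 5 of 6 matched, summed to 0.826, 1.18 and 0.718 TPM at 2h APF, against 187, 207 and 548 TPM at wL3, and 0 of them reached 1 TPM on average at 2h APF. The 6 muscle genes summed to 31.3, 30.5 and 31.3 TPM at 2h APF, against 44.6, 195 and 173 TPM at wL3. Act57B made up most of the muscle sum at 2h APF, with 28.7, 26.7 and 27.7 TPM, against 19.6, 76.1 and 79.4 TPM at wL3. Only 2 of the 6 muscle genes reached 1 TPM on average at 2h APF. The 5 hemocyte genes summed to between 17.8 and 23.4 TPM at 2h APF and between 64.3 and 120 TPM at wL3. At wL3 the fat body, salivary gland, muscle and hemocyte sums were all lowest in replicate 1, as were the 3 TCONS targets. At 2h APF the fat body, salivary gland and hemocyte sums were lowest in replicate 3 and the muscle sum in replicate 2. Tracheal genes (3) summed to between 504 and 543 TPM at 2h APF and between 302 and 310 TPM at wL3, neuronal genes (4) to between 21.5 and 25.6 TPM at 2h APF and between 15.5 and 22.8 TPM at wL3, and 9 genes of the ecdysone response to between 8318 and 9108 TPM at 2h APF and between 3127 and 4310 TPM at wL3. Most of the last sum was ImpE2, with 6218, 6720 and 5994 TPM at 2h APF, against 3291, 2308 and 2608 TPM at wL3. Eip74EF went the other way, with 8.20, 7.66 and 7.23 TPM at 2h APF, against 30.0, 31.5 and 32.2 TPM at wL3. Eip75B overlapped between the stages, and the other ecdysone genes were higher in all libraries at 2h APF. The part of these tissues in the levels of the 100 targets was not tested, and in such bulk samples fewer cells of a type and less RNA per cell cannot be told apart. When replicate 1 of both stages was left out, the calls numbered 7 higher and 5 lower, where 7.76% of all targets tested were called higher and 6.81% lower.

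**Figure D4:**
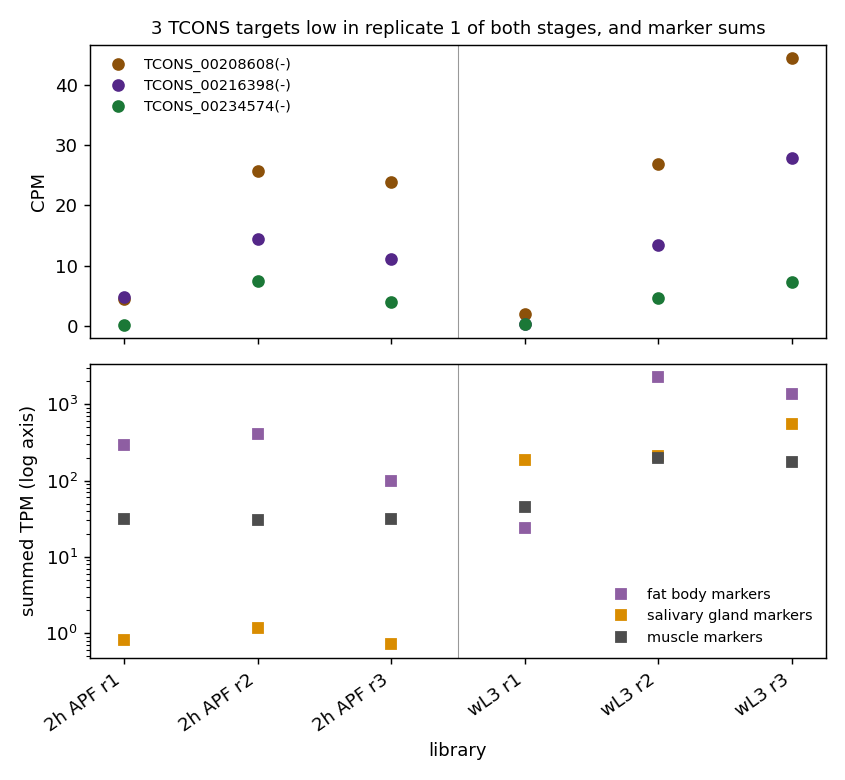
Upper panel, CPM per library of TCONS_00208608, TCONS_00216398 and TCONS_00234574; lower panel, summed TPM (log axis) of fat body, salivary gland and muscle marker genes in the same libraries, with 2h APF left of the vertical line and wL3 right of it. The 3 targets are lowest in replicate 1 of each stage.

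No target of the 100 was specific to a stage. With detection set at 5 or more counts in at least 2 of the 3 libraries of a stage, all 100 were detected at both 2h APF and wL3, and 97 had at least 5 counts in every library. The minimum count that chose the targets leaves little room for another outcome. Over all 42506 targets 6.10% were detected at 1 stage only, 1113 at 2h APF and 1481 at wL3, and among the FBtr targets with the same minimum count the share was 0.909%. Among the 13233 targets without an FBtr identifier that stayed under the minimum, 340 were detected at both stages, 97 only at 2h APF and 119 only at wL3, so that 38.8% of those detected at all were detected at 1 stage.

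A stricter or a length-based definition found 4 stage-specific targets each, and the share over all targets is not given for either. With at least 10 counts required in every library of a stage, these were Mgn4324.k and, from 1 root, Mgn4397.k, Mgn4397.r and Mgn4397.ag. Each was stage-specific through a low count in at least 1 library. With a level of at least 1 TPM in at least 2 of 3 libraries, the chrX target, Mgn3884.d and Mgn4324.n were detected only at 2h APF and Mgn94004.a only at wL3. The last 4 are also among the 12 targets called, which rests on the same values. Of these, the chrX target, Mgn3884.d and Mgn4324.n reached the minimum count through 2h APF alone. Each of the last 4 had at least 23 counts in every library at the stage without detection, so that they were low there and not absent.

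The targets were shorter than abundant FBtr targets and their level fell with length. Their median length was 1625 bases, in a range from 219 to 15713 bases, beside a median of 2396 bases for the FBtr targets with the same minimum count and 240 bases for all targets without an FBtr identifier. Of the 100, 11 were under 500 bases, against 1.34% of the abundant FBtr targets, and 11 were over 5000 bases. Mean TPM ranged from 0.539 to 2192, with 11 targets at 100 TPM or more and 5 under 1 TPM, and the median target stood at 7.80 TPM at 2h APF and 9.95 TPM at wL3. Across the 100 targets Spearman's rho between length and mean TPM was -0.75, beside -0.44 for the abundant FBtr targets. A fixed minimum count sets a floor of TPM that falls as length increases, and TPM itself is divided by length, so these values describe the selection and carry no test.

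The shortest and the longest targets illustrate the range. TCONS_00209860, with 265 bases, averaged 106 ± 13.0 TPM at 2h APF and 97.8 ± 9.96 TPM at wL3, and Mgn94045.a, with 336 bases, 39.3 ± 9.23 TPM at 2h APF and 30.3 ± 3.19 TPM at wL3 (SD, n = 3 each). Mgn4035.n, with 14730 bases, averaged 0.589 ± 0.114 TPM at 2h APF and 0.489 ± 0.0561 TPM at wL3, from as many counts as many short targets had (its mean was 190). Mgn3631.d, with 13428 bases, averaged 0.664 ± 0.0944 TPM at 2h APF and 0.474 ± 0.0426 TPM at wL3 (SD, n = 3 each). Its stages did not overlap but it missed the threshold (log2 fold change 0.46, edgeR adjusted p = 0.0837). DESeq2 gave an adjusted p of 0.018.

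**Figure D5:**
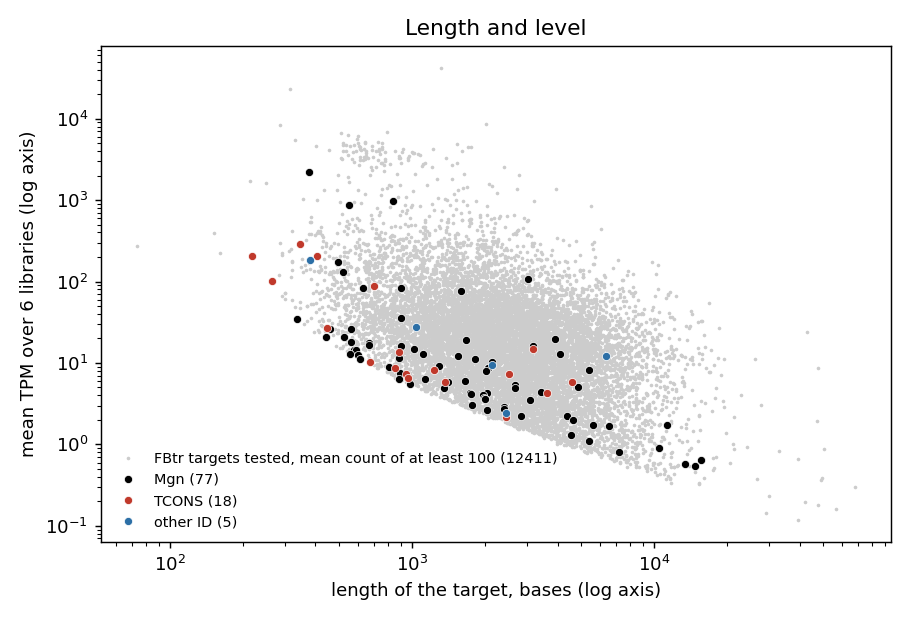
Mean TPM over 6 libraries against length in bases (both log axes), with 1 point per target; Mgn targets (77) are black, TCONS targets (18) red and targets with another ID (5) blue, on top of the 12411 tested FBtr targets with a mean count of at least 100 (grey). The lower edge of both groups is the minimum count, which corresponds to less TPM in a longer target.

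Annotated long noncoding RNAs gave a comparison with known genes. Of 18 such genes on a fixed list, 15 were matched and 12 passed the filter in the fit over 8989 genes, in which 29.3% of genes passed an adjusted p under 0.05 higher and 36.7% lower. On the list 3 passed higher and 7 lower. Among those higher was lncRNA:let7C, the host transcript of the let-7 microRNA cluster, which averaged 2.65 ± 0.381 TPM at 2h APF and 1.08 ± 0.394 TPM at wL3 (SD, n = 3 each; log2 fold change 1.28, SE 0.31, edgeR adjusted p = 0.0106). The heat shock RNA lncRNA:Hsromega was at 164, 124 and 108 TPM at 2h APF, against 99.6, 108 and 101 TPM at wL3 (log2 fold change 0.41, edgeR adjusted p = 0.0273). Of the 7 lower genes 6 were Uhg genes, hosts of small nucleolar RNAs, such as Uhg4 with 95.6, 97.9 and 99.5 TPM at 2h APF, against 160, 159 and 161 TPM at wL3 (log2 fold change -0.69, SE 0.0491, edgeR adjusted p = 4.01e-05). The remaining one was lncRNA:roX1, an RNA of the male dosage compensation complex, with 1.36, 1.27 and 1.47 TPM at 2h APF, against 1.57, 39.7 and 9.78 TPM at wL3, where wL3 replicate 1 stood near the 2h APF libraries. With the fold threshold, lncRNA:let7C was called higher and lncRNA:roX1 lower, where 9.32% of the genes tested were called higher and 8.88% lower. Set on the same scale, TCONS_00262090 at 2h APF (483 ± 14.4 TPM, SD, n = 3) stood above each of the listed genes.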

How the data were processed

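PolyA+ libraries were prepared with a strand-specific kit and sequenced as paired-end reads. Leg disc is the tissue in the labels and the methods, and it was used here although the deposited extraction text mentions embryos. The authors obtained the estimated counts with kallisto, which assigns each read to the targets that share its short words, on a list that joined Ensembl 74 with added lincRNAs, and the deposited estimated counts are not normalised between libraries. The deposited TPM values were computed by the authors with kallisto from these counts and the effective lengths. The kallisto version and its strand setting are not given in the sources used here, so reads of overlapping targets on opposite strands may not be told apart.

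Estimated counts of all 42506 targets were rounded and compared with edgeR 4.0.16 in R 4.3.3 (TMM, filterByExpr, glmQLFTest, p-values adjusted over 17601 targets). A trial on simulated counts, drawn independently for each target, held neither divided reads nor tissue differences, and its outcome is not used here. Libraries of a stage differed beyond counting noise (chi-square per target 14.8 to 28.4). The SE is the size of the log2 fold change over the square root of F. Sums and ratios of single values were compared with 2-sided exact permutation tests. FBtr targets were summed per gene with the BDGP6.54 annotation for the known genes. Alternatives used DESeq2 1.42.0 and limma 3.58.1, and tables were made with Python 3.11.15 and pandas 2.3.3.

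The targets, lists, markers and tests were chosen with earlier results of these data known. Targets were named by rule: the 10 with the highest mean count, the 5 largest called changes in each direction without overlap, the 5 with the highest TPM, the 3 longest, shortest, closest to 0 and smallest in p, and those beside the minimum. The 6 targets matching a gene were also described. Mgn00479.d, targets of the roots Mgn4441, Mgn4324 and Mgn4397, and the TCONS targets low in replicate 1 were chosen after their values were seen. Sequences were not analysed here.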

Additional observations from a re-analysis of the deposited data

How the results depend on the processing

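Under 19 alternatives that kept a log2 fold change of 1 as the limit or tested against it, 8 of the 12 calls held in all of them, namely the 6 higher at 2h APF, Mgn4378.b and Mgn95015.a. Of these, the chrX target, Mgn4324.n, Mgn3884.d, Mgn4378.b and Mgn95015.a reached the minimum count only through the stage where they were higher. The alternatives refit the same chosen targets in the same libraries, so this stability describes the processing only. Mgn1614.c and Mgn94004.a were lost only when the change was tested against a log2 fold change of 1 (glmTreat), which left 2 targets lower at 2h APF and over all targets 720 higher and 524 lower, beside 1485 and 1178. Mgn00225.a held in 13 and Mgn00479.d in 12 of the 19. Without a fold threshold 13 targets were higher and 19 lower, and over all targets 3574 and 3923. Leaving out 1 library at a time gave 6 to 7 targets higher and 5 to 8 lower, between 96 and 103 targets over the minimum, 0 stage-specific targets and a log2 ratio of the summed share of counts between -0.14 and -0.07. Over all targets these fits called 1239 to 1457 higher and 985 to 1248 lower, of 18188 to 18518 tested. That ratio was -0.10 with all libraries and 0.12 as a sum of TPM. A minimum mean of 50 gave 156 targets and one of 200 gave 55. Detection at 10 counts in every library of a stage gave 4 stage-specific targets, and so did detection at 1 TPM. Of 608 log2 fold changes of 32 targets under alternatives, 569 stayed on the same side of the threshold, 24 lost it, 15 gained it and 0 changed direction past it. For Mgn560.d all that changed gained it, with the adjusted p between 0.0332 and 0.0468 there. Sums per ID root and the fits without replicate 1 of both stages were added after seeing the data. The median log2 fold change over all targets was -0.03 with TMM and -0.12 with total library size. Same-numbered libraries did not deviate together (Pearson's r of 0.00872, 0.0222 and -0.0361 across targets, beside -0.0567 to 0.0508 for other pairs), so the numbers were not taken as pairs, and with a replicate block 6 targets were higher and 7 lower. Over all 17601 targets tested that block gave 1226 higher and 966 lower. Precision is limited by 3 libraries per stage, by 45 targets with a mean under 200 counts, and possibly by reads divided within ID roots.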
